A study of Mus musculus with 5 samples.

Results

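The proteasome genes of this series are the 50 of 27998 listed mouse genes whose symbols begin with Psma, Psmb, Psmc, Psmd, Psme, Psmf or Psmg, with symbols containing -ps left out. They were described in leukocytes and other cells of mouse dermis, with the immunoproteasome genes Psmb8, Psmb9 and Psmb10 set against their constitutive partners Psmb5, Psmb6 and Psmb7. By role the 50 symbols comprised 7 ordinary 20S alpha subunits, 4 structural 20S beta subunits, 3 constitutive and 3 immunoproteasome catalytic beta subunits, 6 ATPases and 11 other subunits of the 19S particle. The remainder were 3 PA28 activator genes, the near-copy Psme2b, the PA200 gene Psme4, the inhibitor gene Psmf1, 4 assembly chaperones of the 20S and 3 of the 19S particle, Psma8, Psmb11 and Psmc3ip. Psma8 encodes a germ-line alpha subunit, Psmb11 the catalytic subunit of the thymus proteasome, and Psmc3ip a recombination factor that shares only its name with the family.

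The proteasome degrades ubiquitin-tagged proteins. Its 20S core is a barrel of stacked alpha and beta rings with the protease sites inside, and its 19S cap binds, unfolds and feeds in the substrate. In cells of the immune system, and in other cells after exposure to interferon, newly built cores can carry LMP2 (Psmb9), MECL-1 (Psmb10) and LMP7 (Psmb8) in place of the constitutive beta 1 (Psmb6), beta 2 (Psmb7) and beta 5 (Psmb5) subunits, which changes the peptides released for presentation on MHC class I. PA28, a ring of the Psme1 and Psme2 products, is an alternative cap that interferon also induces.

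The study profiled cells of C57BL/6 mouse dermis, sorted as live and CD45+ (CD45, encoded by Ptprc, is the surface marker of leukocytes), by droplet single-cell RNA sequencing of transcript 3′ ends. There was 1 library each from untreated skin at postnatal days 45, 50, 63 and 80 (P45, P50, P63 and P80) and 1 taken 5 days after depilation (P50_Depil5D), a hair removal that starts a new hair cycle. The labels do not say whether day 50 was the day of depilation or of collection, and give neither sex nor the number of animals pooled. Values listed per library follow the order P45, P50, P63, P80 and P50_Depil5D. Levels are in CPM, a gene's part of the UMIs of its class in a library on the usual counts-per-million scale.

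The 5 libraries held 2153, 1479, 592, 497 and 1502 barcodes with 1032621 to 7491878 UMIs (unique molecular identifiers, each counting 1 captured molecule). The 50 genes took 0.398% to 0.488% of them. Of 6162 cells kept, 4361 were placed in a class by marker genes and 1801 (29.2%) were not; 1608 were T cells, 1101 keratinocytes, 927 dermal dendritic cells and 409 macrophages. The keratinocytes were at odds with the CD45+ sort: Ptprc stood at 24.0 to 40.4 CPM in them and at 491 to 729 in T cells. Barcodes that also occurred in another library belonged to 587 of the 1101 keratinocytes (1, 142, 140, 170 and 134 per library), but to 1.93% of T cells, 2.93% of macrophages and 6.26% of dermal dendritic cells. The keratinocyte values of the last 4 libraries may therefore not be independent, and each contrast with them was also computed without these cells. The libraries further differed in the share of ribosomal protein UMIs counted on ribosomal pseudogenes, with medians of 7.08%, 3.70%, 18.5%, 25.0% and 3.51%.

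The promoters of the immunoproteasome genes and of Psme1 are shown because these genes were higher in at least 1 leukocyte class than in keratinocytes, and those of Psmb5 and Psmb6 because they are the constitutive partners they are compared with (Psmb7 had no entry). Each window runs 5′ to 3′ from 250 bases before to 20 bases after the RefSeq start, on the gene's strand (GRCm38.p6, the mm10 assembly), with capitals marking a match to GAAANNGAAA, the letters of an interferon-stimulated response element, or to TTCNNNGAA, those of an interferon-gamma activated site, searched on both strands. The windows are chr17:34197945-34198214 (plus strand) for Psmb8, chr17:34187311-34187580 (minus) for Psmb9, chr8:105938373-105938642 (minus) for Psmb10, chr14:55578244-55578513 (plus) for Psme1, chr14:54617976-54618245 (minus) for Psmb5 and chr11:70525107-70525376 (plus) for Psmb6.
Psmb8: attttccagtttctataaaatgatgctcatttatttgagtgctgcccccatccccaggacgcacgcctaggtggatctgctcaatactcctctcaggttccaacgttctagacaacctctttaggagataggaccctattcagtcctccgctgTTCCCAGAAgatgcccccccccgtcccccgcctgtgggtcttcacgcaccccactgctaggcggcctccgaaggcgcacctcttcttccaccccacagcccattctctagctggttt
Psmb9: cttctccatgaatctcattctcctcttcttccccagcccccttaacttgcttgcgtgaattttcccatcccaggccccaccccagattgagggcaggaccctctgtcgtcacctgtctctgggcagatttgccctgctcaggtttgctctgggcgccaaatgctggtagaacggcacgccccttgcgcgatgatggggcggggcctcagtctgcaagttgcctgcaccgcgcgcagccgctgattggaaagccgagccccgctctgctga
Psmb10: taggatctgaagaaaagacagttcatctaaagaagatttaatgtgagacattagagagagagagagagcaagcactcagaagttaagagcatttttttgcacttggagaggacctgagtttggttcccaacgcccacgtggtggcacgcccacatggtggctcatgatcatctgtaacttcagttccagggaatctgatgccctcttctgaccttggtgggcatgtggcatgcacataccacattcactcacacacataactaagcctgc
Psme1: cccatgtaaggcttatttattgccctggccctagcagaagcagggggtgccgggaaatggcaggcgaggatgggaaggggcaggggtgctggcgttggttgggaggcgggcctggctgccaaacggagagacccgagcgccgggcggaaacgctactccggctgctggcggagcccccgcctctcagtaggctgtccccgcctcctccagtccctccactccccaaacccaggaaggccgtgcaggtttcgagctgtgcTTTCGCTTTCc
Psmb5: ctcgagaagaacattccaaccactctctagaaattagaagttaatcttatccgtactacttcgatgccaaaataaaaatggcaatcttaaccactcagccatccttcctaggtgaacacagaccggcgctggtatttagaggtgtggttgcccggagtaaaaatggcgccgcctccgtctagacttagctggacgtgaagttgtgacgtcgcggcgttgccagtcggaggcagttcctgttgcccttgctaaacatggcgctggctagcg
Psmb6: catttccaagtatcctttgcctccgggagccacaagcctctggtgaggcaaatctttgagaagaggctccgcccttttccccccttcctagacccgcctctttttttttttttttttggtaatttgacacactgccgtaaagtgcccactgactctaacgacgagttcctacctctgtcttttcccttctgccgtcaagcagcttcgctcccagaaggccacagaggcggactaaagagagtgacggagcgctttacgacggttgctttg

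The Psmb8 window held TTCCCAGAA, a match to TTCNNNGAA, and the Psme1 window held TTTCGCTTTC, which is GAAANNGAAA read on the other strand. The windows of Psmb9, Psmb10, Psmb5 and Psmb6 held neither motif. Psme2, also called higher in dermal dendritic cells than in keratinocytes, had windows with neither motif as well, which are not shown. The windows of Psmb8, Psmb9 and Psme1 lie downstream of the outermost GENCODE starts of these genes (34197721, 34187764 and 55578123), inside the annotated gene, so sequence before those starts was not searched. In the full windows of 300 bases, 42 of the 50 genes had 45 entries; GAAANNGAAA occurred in 5 of the 45 (11.1%; Psmd4, Psmd9, Psmb3, Psmg4 and Psme1) and in 3.44% of all 32851 promoter windows. TTCNNNGAA occurred in 3 of the 45 (6.67%; Psmd2, Psmg1 and Psmb8) against 8.30% of all windows. TGANNNNGC, the core of the antioxidant response element through which Nfe2l1 and its relatives act, occurred in 26 of the 45 (57.8%) against 41.3% of all windows, and CCAAT in 15 (33.3%) against 37.4%. These matches are descriptions of the letters and were not tested as binding sites. Psmb8 (chromosome 17, 34197721 to 34201454 in mm10, plus strand) and Psmb9 (34181987 to 34187764, minus strand) lie in the MHC beside the peptide transporter gene Tap1, whose annotated start is 211 bases from that of Psmb9 on the opposite strand (GENCODE starts). Psmb10 is on chromosome 8 (105935735 to 105938444), away from both.

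Across all kept cells, Psma7 and Psmb1, both of the core, were the most abundant of the 50 transcripts. Because 3′ counting gives 1 UMI per captured transcript end, levels are compared between genes without a length term. The alpha subunits had a median of 140 CPM (range 62.3 to 398 over 7 genes, Psma7 highest) and the structural beta subunits 179 (114 to 329 over 4 genes, Psmb1 highest). The 19S ATPases had a median of 56.5 (33.6 to 85.0 over 6 genes) and the other 19S subunits 46.8 (28.0 to 125 over 11 genes). Among the catalytic genes Psmb8 was highest at 251 CPM, above Psmb6 (180), Psmb5 (101), Psmb9 (91.7), Psmb7 (86.2) and Psmb10 (67.4). The PA28 genes Psme1 (225) and Psme2 (183) were on the scale of the core. Psme3, which encodes the nuclear PA28 gamma, stood at 30.1, Psme4 at 18.6 and Psmf1, the gene of the inhibitor PI31, at 19.6. The 20S assembly chaperones lay between 12.6 (Psmg1) and 62.5 (Psmg4). Psma8 had 12 UMIs in all and Psmb11 had 3, so both were near absent at this depth. With Psmc3ip and Psmd5 they did not pass the low-count filter, which left 46 genes for the tests.

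The immunoproteasome share, the UMIs of Psmb8, Psmb9 and Psmb10 as a percentage of those of all 6 catalytic genes, ordered the cell classes. In dermal dendritic cells it was 60.1%, 61.0%, 69.7%, 71.7% and 57.4% (64.0% ± 6.33, SD, n = 5 libraries). In macrophages it was 54.4%, 55.4%, 56.4%, 57.1% and 57.7% (56.2% ± 1.33, n = 5). In T cells it was 55.0%, 43.4%, 62.1%, 65.4% and 43.2% (53.8% ± 10.3, n = 5), and in keratinocytes 36.4%, 33.9%, 53.0%, 41.5% and 36.4% (40.2% ± 7.67, n = 5). Among these classes macrophages had the narrowest spread between libraries and T cells the widest. The macrophage shares of P63 and P80 rest on 22 and 8 immunoproteasome UMIs against 17 and 6 constitutive ones. Their exact intervals of counting error were 39.6% to 72.2% and 28.9% to 82.3%, far wider than the spread between libraries. The SD of 1.33 therefore does not show that macrophages vary less than the other classes.

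Within libraries the share was above that of keratinocytes in 5 of 5 libraries for each of the 3 leukocyte classes, by 23.8 ± 5.26 percentage points in dermal dendritic cells, 16.0 ± 7.47 in macrophages and 13.6 ± 7.33 in T cells (mean ± SD, n = 5). Without cells of shared barcodes the keratinocyte share was 36.5% ± 9.33 and the differences were 28.3, 18.5 and 16.6 points, again positive in 5 of 5 libraries, although the smallest, between macrophages and keratinocytes of 1 library, was 0.322 points. Dermal dendritic cells exceeded T cells by 10.2 ± 5.45 points in 5 of 5 libraries; this fell to 4 of 5 with a gate of 2 markers and with cells of at least 500 genes. Macrophages and dermal dendritic cells did not separate in every library (macrophages lower by a mean of 7.77 points, SD 6.17, in 4 of 5). Macrophages and T cells overlapped across libraries. The shares are descriptions with no test, and the 4 classes come from the same 5 libraries.

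**Figure D1:**
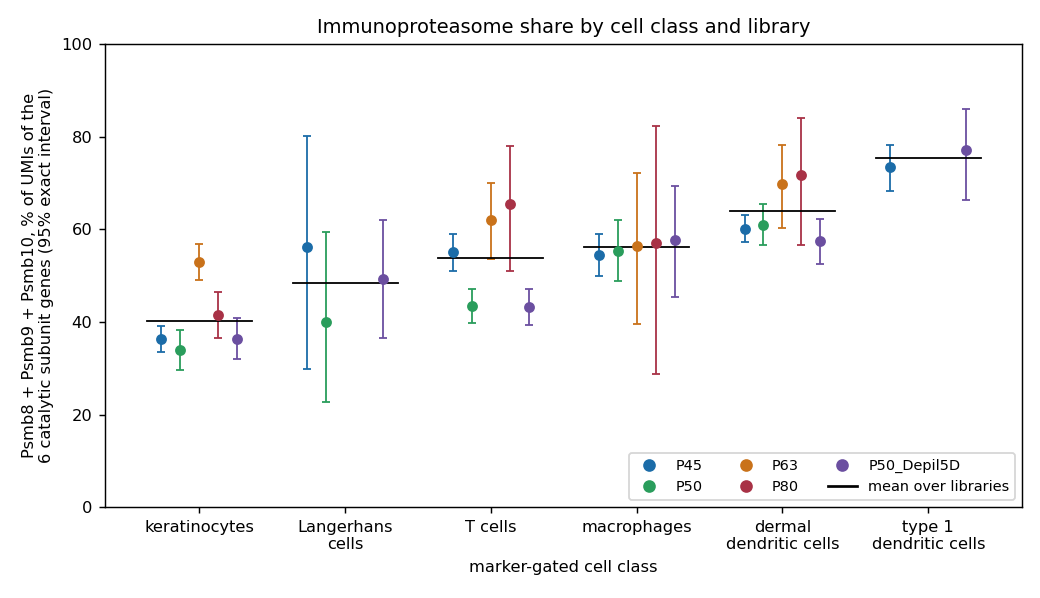
Immunoproteasome share (y axis, % of UMIs of the 6 catalytic subunit genes) in each marker-gated cell class (x axis), with 1 point per library and its exact 95% binomial interval, which covers counting error only. Type 1 dendritic cells lie highest at 73.4% and 77.2%, and keratinocytes are the lowest class with 5 libraries, at 33.9% to 53.0%.

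Smaller classes are described with fewer libraries. Type 1 dendritic cells, the cross-presenting lineage marked by Xcr1 and Clec9a, had shares of 73.4% in P45 and 77.2% in P50_Depil5D, 16.5 points above dermal dendritic cells on average in those 2 libraries. The 19 mature dendritic cells, marked by Ccr7 and Fscn1, had 79.6% with all libraries summed (exact 95% interval 70.3% to 87.1%, 98 UMIs). Langerhans cells, the dendritic cells of the epidermis, had 56.2%, 40.0% and 49.2% in the 3 libraries with enough cells (48.5% ± 8.15, n = 3), lower than the other dendritic classes. Fibroblasts had 34.9% in P45, the single library with enough of them, and from 5.26% to 69.0% in the others, on 2 to 9 cells each. Endothelial cells had 53.8% in P45 and 64.7% in P63, within the range of the leukocyte classes, and from 14.3% to 66.7% in the others, on 1 to 6 cells each. Shared barcodes belonged to 12 of the 35 endothelial cells, and without them the single library with enough cells had 42.9%. The 10 mural cells had 4 immunoproteasome UMIs of 21 with all libraries summed (interval of the share 5.45% to 41.9%). B cells (81.2%, 54.4% to 96.0%, 16 UMIs over the 6 genes) and NK cells (65.5%, 45.7% to 82.1%) had too few UMIs to be placed in the order.

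Keratinocytes had the lowest mean share, among the 4 classes with 5 libraries, in each of the 3 pairs. For the beta 5 pair, Psmb8 made up 77.7% ± 2.75 of the Psmb8 and Psmb5 UMIs in dermal dendritic cells, 73.1% ± 4.36 in macrophages, 72.9% ± 11.5 in T cells and 59.9% ± 6.71 in keratinocytes (SD, n = 5 each). For the beta 2 pair, Psmb10 made up 56.5% ± 14.4, 57.2% ± 13.4, 45.4% ± 12.5 and 28.5% ± 6.43 in the same order. For the beta 1 pair, Psmb9 made up 45.5% ± 16.5, 36.4% ± 6.00, 32.3% ± 6.94 and 26.1% ± 7.67. The Psmb9 share of type 1 dendritic cells was 70.8% and their Psmb8 share 85.2% (means of 2 libraries), whereas their Psmb10 share of 60.0% in P45 and 40.0% in P50_Depil5D lay on either side of the dermal dendritic mean. The value of 40.0% rests on 4 Psmb10 and 6 Psmb7 UMIs.

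Psmb10 separated keratinocytes from every other class with 5 libraries. It stood at 31.2, 26.5, 42.5, 31.5 and 21.9 CPM in keratinocytes. T cells had 74.3, 84.6, 56.8, 109 and 58.9. Dermal dendritic cells had 70.4, 101, 144, 93.7 and 56.7, and macrophages 102, 171, 183, 52.5 and 68.8. No library value of these 3 leukocyte classes fell in the keratinocyte range, but their lowest, 52.5 in macrophages of P80, rests on 1 UMI. Langerhans cells had 1 Psmb10 UMI of 40839 in P50 and 1 of 65367 in P50_Depil5D, so the separation does not cover them. In edgeR's quasi-likelihood test with library as a block and Benjamini-Hochberg adjustment over 8069 genes, the log2 fold change against keratinocytes was 1.02 (SE 0.26, adjusted p = 0.000612) in T cells, 1.73 (adjusted p = 3.9e-08) in dermal dendritic cells and 1.78 (adjusted p = 2.8e-07) in macrophages. All 3 calls were kept in every alternative run (16, 16 and 15 settings).

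Psmb8 was the catalytic gene with the highest mean in T cells, macrophages and dermal dendritic cells, although Psmb6 exceeded it in T cells of P50 and P50_Depil5D and in macrophages of P50 and equalled it in macrophages of P80. Keratinocytes had 110, 126, 189, 147 and 127 CPM and dermal dendritic cells 334, 365, 393, 266 and 289, with no overlap. T cells had 318, 223, 320, 401 and 172, so that the lowest T cell library lay inside the keratinocyte range. Macrophages had 262, 278, 183, 210 and 358, also with 1 library inside it. The edgeR log2 fold change against keratinocytes was 1.51 (Benjamini-Hochberg adjusted p = 1.4e-07) in dermal dendritic cells, kept in 16 of 16 alternatives. It was 0.69 (adjusted p = 0.0121) in T cells, a call lost without P45 or without a low-count filter (highest adjusted p 0.0702). In macrophages it was 0.72 (adjusted p = 0.0186), lost without P50, without P50_Depil5D, without the filter or without the library block (highest adjusted p 0.0964).

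Psmb9 differed less. Keratinocytes had 55.3, 53.1, 84.1, 62.9 and 44.9 CPM, T cells 82.7, 83.3, 87.8, 109 and 77.1, and dermal dendritic cells 81.5, 88.1, 192, 156 and 67.4. Macrophages had 86.6, 126, 81.5, 158 and 138. In each class the lowest library lay below the highest keratinocyte library. Psmb9 was higher in dermal dendritic cells (edgeR log2 fold change 1.02, adjusted p = 0.000329, kept in 16 of 16 alternatives) and in macrophages (0.75, adjusted p = 0.0245, lost in the same 4 settings as Psmb8 there, with a highest adjusted p of 0.159). In T cells the difference of 0.31 did not pass (adjusted p = 0.301).

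The constitutive partners were called in none of the 5 contrasts tested between classes by edgeR or DESeq2, and 0 of the 3 had an unadjusted edgeR p under 0.05 (1 had a DESeq2 one, between macrophages and dermal dendritic cells). Psmb6 stood at 188, 197, 130, 174 and 170 CPM in keratinocytes, 194, 249, 114, 219 and 182 in T cells, 187, 305, 143, 210 and 193 in macrophages and 159, 163, 105, 93.7 and 147 in dermal dendritic cells. Its edgeR log2 differences from keratinocytes were -0.17, 0.01 and -0.06, in T cells, macrophages and dermal dendritic cells (adjusted p = 0.559, 0.989 and 0.856). Those of Psmb7 were 0.07, -0.26 and 0.26 (adjusted p = 0.843, 0.509 and 0.412), and those of Psmb5 were -0.05, 0.01 and 0.24 (adjusted p = 0.886, 0.990 and 0.451). Standard errors were 0.22 to 0.30, so the lack of a call does not exclude differences of that size or somewhat larger in these genes.

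**Figure D2:**
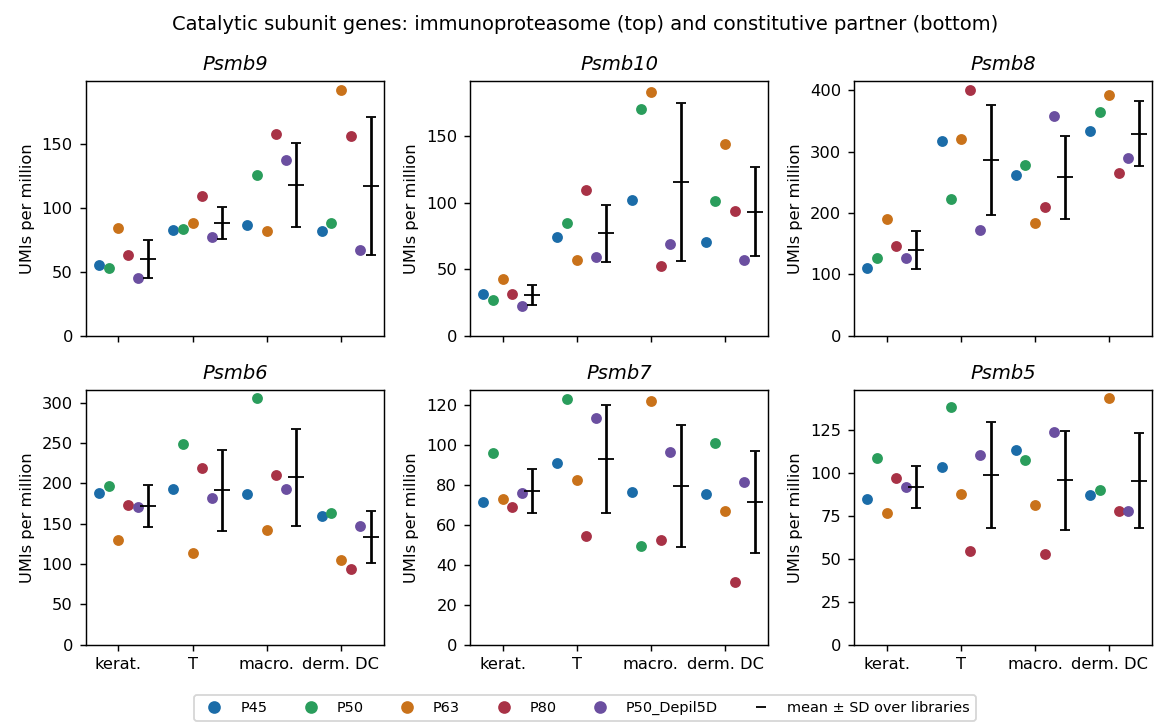
CPM (y axis, linear from 0) of the 3 immunoproteasome genes (top) and the constitutive partner of each (bottom) in 4 cell classes (x axis), with 1 point per library and bars for mean ± SD over 5 libraries. Psmb10 in keratinocytes (21.9 to 42.5) lies below every library of the other 3 classes shown, while the constitutive genes overlap between all 4 classes. The lowest Psmb10 value of those 3 classes, in macrophages of P80, rests on 1 UMI.

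In CPM, the 50 genes summed to 4811, 5440, 4938, 5247 and 4556 in T cells, 4121, 4856, 4797, 3953 and 4021 in dermal dendritic cells and 4164, 4802, 3809, 3624 and 4268 in macrophages. In keratinocytes they summed to 3659, 3947, 3892, 3680 and 3695, below every library of T cells and of dermal dendritic cells, the latter by a narrow margin, and overlapping macrophages. The fits, scaled by TMM, showed a few genes in each direction. Against keratinocytes, T cells had 5 higher and 3 lower genes, where 23.9% and 24.9% of all 8069 genes were called higher and lower. Dermal dendritic cells had 11 higher and 2 lower (all genes 21.8% and 24.6%), and macrophages 3 higher and 2 lower (all genes 18.9% and 23.3%). The shares of called members were near the background for higher calls in dermal dendritic cells and below it in the other cases. The median log2 differences of the 46 genes were 0.03, 0.14 and -0.12, beside -0.04, -0.13 and -0.23 over all genes tested. The 3 contrasts share the keratinocyte sums. Fold changes are scaled by TMM, which estimates composition from most genes, whereas CPM are scaled by library total only, so these need not match. In the T cell contrast, scaling by library size gave 14 higher and 2 lower members and shifted the median over all genes by 0.25. In the dermal dendritic contrast library size and DESeq2's size factors each gave 8 higher and 5 lower, with that median moved by -0.30 and -0.27.

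**Figure D3:**
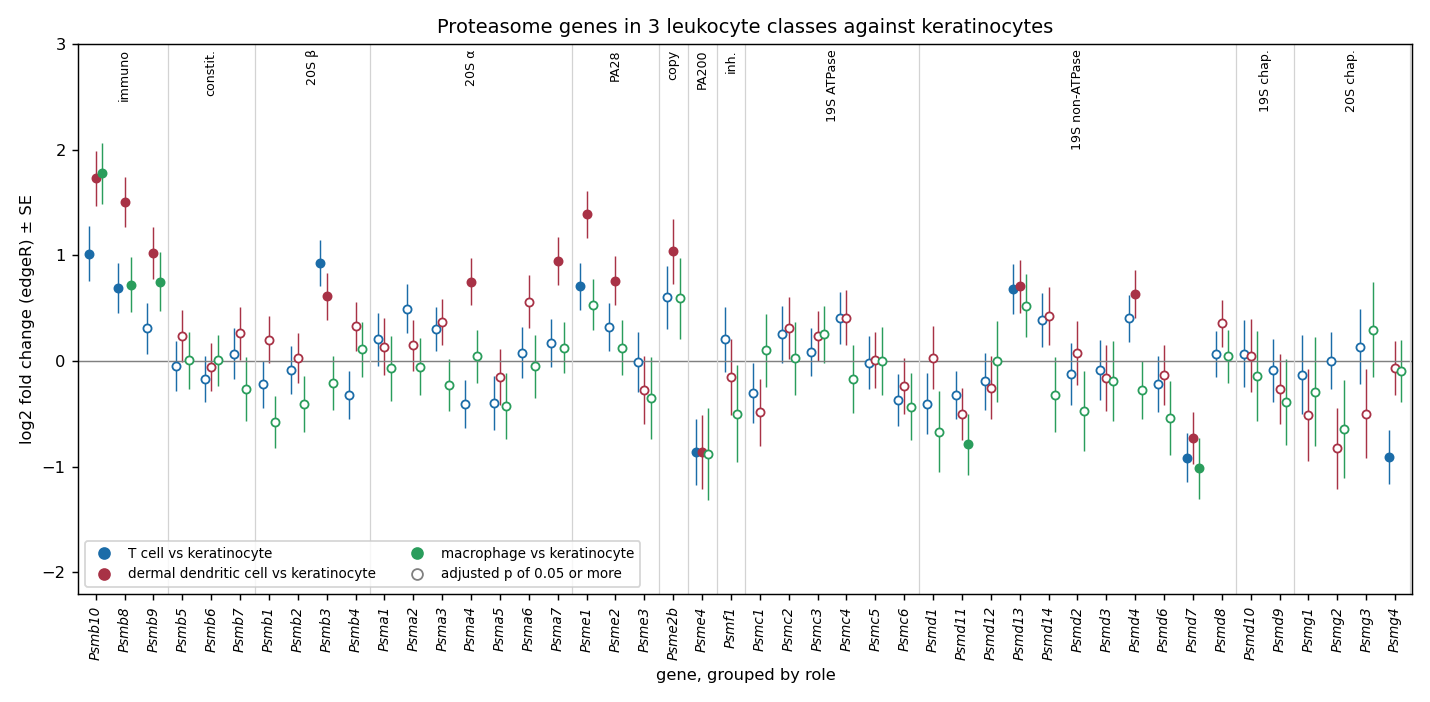
edgeR log2 fold change ± SE (y axis) of each tested proteasome gene (x axis, grouped by role) in T cells, dermal dendritic cells and macrophages against keratinocytes; filled points have a Benjamini-Hochberg adjusted p under 0.05. The highest point is Psmb10 in macrophages (1.78) and the lowest Psmd7 in macrophages (-1.02); in T cells Psmb3 (0.93) stands above Psmb8 (0.69) and Psmb9 (0.31, open).

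Of the PA28 genes, Psme1 was higher in T cells and dermal dendritic cells than in keratinocytes. It stood at 126, 145, 139, 111 and 119 CPM in keratinocytes, 229, 264, 310, 255 and 227 in T cells and 222, 309, 374, 281 and 275 in dermal dendritic cells, without overlap. The edgeR log2 fold changes were 0.71 (adjusted p = 0.00539) and 1.39 (adjusted p = 1.8e-07), and both were kept in 16 of 16 alternatives. Psme2, its partner in the ring, stood at 133, 129, 168, 130 and 131 in keratinocytes and 170, 264, 240, 156 and 165 in dermal dendritic cells (log2 fold change 0.76, adjusted p = 0.00502). That call was lost without P50 and without cells that carry markers of another class (highest adjusted p 0.0667). In T cells Psme2 differed by 0.33 (adjusted p = 0.245), with 237, 213, 269, 200 and 151 CPM. Psme3 passed in none of the 3 contrasts with keratinocytes. Psme4, whose product PA200 is a nuclear cap, was lower in T cells and in dermal dendritic cells by 0.86 on the log2 scale in each (log2 -0.86, adjusted p = 0.0182 and 0.0372), calls that were lost in 4 and 5 of the 13 alternatives that tested it. In both contrasts it was lost without P45 and without P50, and in dermal dendritic cells also without P50_Depil5D.

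Psme2b, listed as a gene of its own on chromosome 11, is a near-copy of Psme2: their aligned transcripts had 789 identical bases and 5 mismatches (99.4% identity), so counts can be split between them. Psme2b made up 12.6%, 8.03%, 30.9%, 31.7% and 5.31% of the summed Psme2 and Psme2b UMIs of gated cells. The same 2 libraries, P63 and P80, were highest in keratinocytes (32.1% and 28.1%) and in T cells (29.7% and 38.9%). They were also the 2 with the most ribosomal pseudogene counts (18.5% and 25.0%). Psme2b was higher in dermal dendritic cells than in keratinocytes (edgeR log2 fold change 1.04, adjusted p = 0.00393), a call lost without the library block and without mixed cells (highest adjusted p 0.561). The immunoproteasome share of T cells and dermal dendritic cells was highest in P63 and P80 as well. Whether the way reads were assigned contributes to that was not tested, and library and age cannot be told apart.

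**Figure D4:**
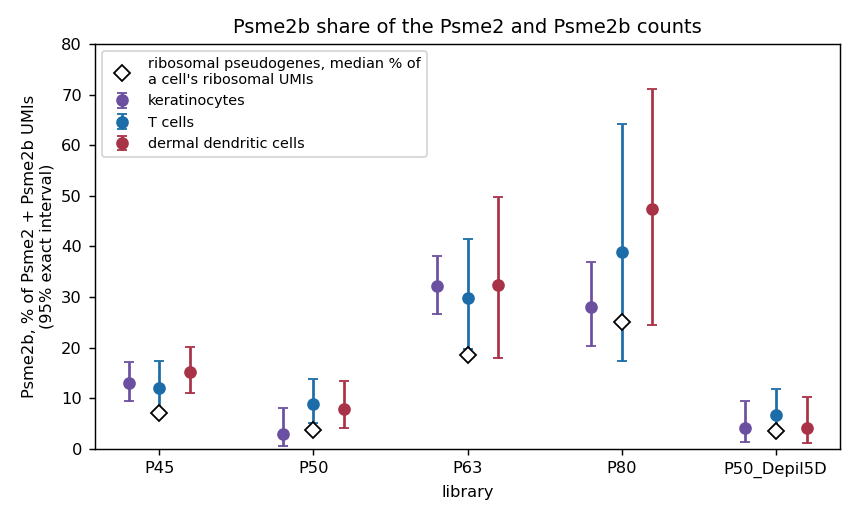
Psme2b as a percentage of Psme2 and Psme2b UMIs (y axis) in each library (x axis) by cell class, with exact 95% intervals of counting error. Over all gated cells P63 and P80 reach 30.9% and 31.7%, and the other 3 libraries 5.31% to 12.6%.

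Among the other core subunits, Psmb3, a structural beta subunit, was higher in T cells. It stood at 297, 395, 305, 346 and 320 CPM in T cells, 146, 154, 133, 150 and 137 in keratinocytes and 186, 212, 125, 187 and 199 in dermal dendritic cells. The edgeR log2 fold change of T cells against keratinocytes was 0.93 (adjusted p = 0.000204), kept in 16 of 16 alternatives. Psma7 and Psma4, were the alpha subunits that rose in dermal dendritic cells. Psma7 stood at 486, 558, 451, 406 and 496 there and at 257, 320, 307, 328 and 258 in keratinocytes (log2 fold change 0.94, adjusted p = 0.000354). Psma4 stood at 164, 204, 249, 141 and 154 against 136, 107, 148, 118 and 114 (log2 fold change 0.75, adjusted p = 0.00399). Both were kept in 16 of 16 alternatives. The other 5 alpha subunits passed in no contrast with keratinocytes.

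None of the 6 ATPases of the 19S cap was called in the 3 contrasts with keratinocytes, where edgeR gave 0 and DESeq2 1, 2 and 0 unadjusted p under 0.05. Psmf1, Psmg1, Psmg2 and Psmg3 were not called by edgeR either, although 1 of the 4 was lower in dermal dendritic cells at an unadjusted p under 0.05 and by DESeq2. Of the 11 other 19S subunits, Psmd7, the partner of the deubiquitinase subunit, was lower in all 3 leukocyte classes. It stood at 124, 124, 98.9, 102 and 90.9 CPM in keratinocytes, above 63.1, 74.4, 56.8, 54.7 and 76.0 in T cells and 43.0, 58.1, 57.6, 78.1 and 56.7 in dermal dendritic cells. Macrophages had 65.0, 49.4, 81.5, 105 and 41.3, where the highest value rests on 18 cells. Its edgeR log2 fold changes were -0.91 (adjusted p = 0.000592), -0.73 (adjusted p = 0.0106, lost without P45) and -1.02 (adjusted p = 0.00242). Psmd13, a subunit of the 19S lid, was higher in T cells (0.68, adjusted p = 0.0130) and dermal dendritic cells (0.71, adjusted p = 0.0169), although both calls were lost without shared barcodes and without P50. Psmd4, a ubiquitin receptor, was higher in dermal dendritic cells (0.63, adjusted p = 0.0179, lost in 6 of 16 alternatives, among them without P50), as was Psmb3 (0.61, adjusted p = 0.0202, lost in 7, among them without P50 and without P50_Depil5D). Psmd11 was lower in macrophages (-0.79, adjusted p = 0.0225, lost without P45 and without P63). Of the assembly chaperones Psmg4 was lower in T cells, with 18.2 to 56.7 CPM against 63.3 to 80.9 in keratinocytes (log2 fold change -0.91, adjusted p = 0.00201, but 0.101 without shared barcodes).

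Dermal dendritic cells had 8 genes above T cells and 0 below, where 18.6% of all genes were called higher and 18.1% lower (1 more was lower at an unadjusted edgeR p under 0.05, and DESeq2 called 4 higher and 3 lower). Psma4 led with a log2 fold change of 1.16 (edgeR adjusted p = 4.0e-05; T cells had 123, 138, 103, 72.9 and 106 CPM) and was kept in 16 of 16 alternatives. Psmb8 followed among the catalytic genes with 0.82 (adjusted p = 0.00439), kept in 14 of 16, and lost without P50_Depil5D and with library-size scaling. Psmb9 (0.71, adjusted p = 0.0207) and Psmb10 (0.71, adjusted p = 0.0224) were kept in 10 and 5 of 16. The other 4 were Psmg4 (0.85), Psma7 (0.77), Psme1 (0.68) and Psmb4 (0.65). The split depended on the scaling: DESeq2's size factors in edgeR gave 3 higher and 3 lower and scaling by library size 1 higher and 8 lower, with the median over all genes moved by -0.27 and -0.54. Over all genes, higher calls were 50.7% of calls with TMM, 35.1% with size factors and 22.7% with library size. The immunoproteasome share, a ratio within a sum, does not depend on this choice.

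Macrophages had 0 genes above dermal dendritic cells and 6 below, where 4.83% of all genes were called higher and 7.11% lower (0 higher and 11 lower at an unadjusted edgeR p under 0.05, 3 and 5 by DESeq2). These were Psmd4 (log2 fold change -0.90), Psme1 (-0.85), Psmb3 (-0.82), Psma7 (-0.82), Psmb8 (-0.78) and Psmb1 (-0.78), with edgeR adjusted p of 0.0118 to 0.0308. None of the 6 was called with DESeq2, with its size factors, with library-size scaling or without the library block, and leaving out single libraries left 1 to 3. Psmb10 did not differ in level beyond its error (0.04, adjusted p = 0.962). The macrophage sum of P80 held 18 cells, and 1 UMI in it is worth 52.5 CPM.

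Mature and type 1 dendritic cells were too few for the planned fit and were compared with dermal dendritic cells in a fit added after the data were seen, with sums of at least 5 cells, in which 24 of the 50 genes could be tested. Psmb9, Psmb8 and Psme1 were higher in both classes, and Psme2 and Psme2b in mature dendritic cells. Summed over libraries, mature dendritic cells had 1261 CPM of Psme2 (exact 95% interval of counting 981 to 1596), 877 of Psmb8, 749 of Psme1, 457 of Psmb9 and 238 of Psme2b. The 5 genes were called higher (4.39% of 2708 genes were) and 0 lower (7.98%), also at an unadjusted p under 0.05. Psme2b led with a log2 fold change of 3.19 (edgeR adjusted p = 0.000598), before Psme2 with 2.37 (8.2e-08), Psmb9 with 2.15 (0.00051), Psmb8 with 1.20 (0.0255) and Psme1 with 1.14 (0.00906). The Psme2b value rests on 6, 2 and 4 UMIs in P45, P50 and P50_Depil5D, and its counts can be split with those of Psme2. Psmb10 was not called (-0.04, adjusted p = 0.989), with 91.4 CPM from 5 UMIs.

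In type 1 dendritic cells, P45 and P50_Depil5D had 426 and 453 CPM of Psmb9, 738 and 580 of Psmb8, 598 and 798 of Psme1 and 280 and 326 of Psme2. Here 3 genes were higher (background 2.99%) and 0 lower, at an unadjusted p also (6.02%): Psmb9 (log2 fold change 2.24, edgeR adjusted p = 5.3e-06), Psme1 (1.32, adjusted p = 0.000532) and Psmb8 (1.06, adjusted p = 0.0357). Psmb10 (0.38, adjusted p = 0.695) and Psme2 (0.60, adjusted p = 0.276) were not called. The difference between the 2 classes in Psme2 was not tested.

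Other genes of the pathway are given beside the same backgrounds as the members (23.9% higher and 24.9% lower of all genes in T cells, 21.8% and 24.6% in dermal dendritic cells, 18.9% and 23.3% in macrophages, each against keratinocytes). Of 12 tested proteasome-linked genes outside the family, T cells had 1 higher than keratinocytes (Uchl5, a deubiquitinase of the cap, log2 fold change 1.30) and 4 lower: Nfe2l1, the transcription factor of the proteasome bounce-back response (-2.11), Ddi2, the protease that activates it (-1.42), Zfand5 (-0.66) and Shfm1 (-0.48). Dermal dendritic cells had 1 higher (Pomp, the chaperone that completes the 20S core, 0.88) and 2 lower (Nfe2l1, -1.25, and Akirin2, a factor for nuclear import of proteasomes, -0.74), and macrophages 0 in either direction by edgeR (0 and 2 at an unadjusted p under 0.05; DESeq2 called 2 higher). Nfe2l1 stood at 62.9 to 95.2 CPM in keratinocytes and at 11.8 to 36.4 in T cells. The MHC class I list gave 4 higher and 1 lower of 11 in T cells, 4 and 1 in dermal dendritic cells and 4 and 0 in macrophages. H2-D1, a class I heavy chain, rose in T cells by 1.17 (821 to 907 CPM in keratinocytes and 1984 to 2770 in T cells), whereas Nlrc5, the class I transactivator, was lower in T cells (-1.32) and dermal dendritic cells (-1.80). Tap1, the head-to-head neighbour of Psmb9, passed in none of the 3 contrasts (log2 differences -0.50, -0.29 and -0.34). Of 10 tested interferon response genes, 5, 5 and 7 were higher in T cells, dermal dendritic cells and macrophages and 0 lower by edgeR and by DESeq2 (1, 0 and 0 lower at an unadjusted edgeR p under 0.05).

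RNA of the other compartment was measured beside these contrasts. The 8 leukocyte genes summed to 429 to 2545 CPM in keratinocytes, 5868 to 10852 in T cells, 19801 to 33649 in macrophages and 51383 to 67755 in dermal dendritic cells, with none at 0 in keratinocytes. Against keratinocytes 7, 8 and 8 of the 8 were higher in T cells, dermal dendritic cells and macrophages, and 10 of 10 keratinocyte markers were lower in each. The 10 keratinocyte markers summed to 24580 to 30415 CPM in keratinocytes and to 52.5 to 1628 in the 3 leukocyte classes. In the P63 keratinocytes the immunoproteasome genes were highest (316 CPM, against 193 to 241 in the other 4 libraries) while the leukocyte genes were lowest (429). The 12 interferon response genes were highest there too (241, against 97.4 to 144). Both sums were also highest in the same library in dermal dendritic cells (P63, 432 and 729 CPM) and macrophages (P50, 1128 and 575). In T cells they were not. There the interferon genes were highest in P50 (858), with 391 for the immunoproteasome genes. The latter were highest in P80 (619), with 346 for the interferon genes. A link between them was not tested.

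T cells differed among themselves in the share. They were split, after the data were seen, at 0.5% of their UMIs from Ctla2a, which encodes a cathepsin inhibitor. The 876 cells above the limit had a share of 38.9% (exact 95% interval 35.9% to 42.0%) and the 732 below it 56.7% (53.8% to 59.5%), with all libraries summed. In P45, P50 and P50_Depil5D, the high cells had 46.1%, 37.3% and 36.1% and the low cells 56.8%, 55.2% and 55.6%. In P63 and P80 the order was the opposite (84.2% against 58.7% and 77.8% against 62.8%), but the high cells there numbered 15 and 9 and gave 19 and 9 UMIs. The low cells alone had shares of 55.2% to 62.8% across the 5 libraries, a narrower range than the 43.2% to 65.4% of all T cells. The high cells had 302 CPM of the 3 immunoproteasome genes and 474 of the 3 constitutive ones, and the low cells 484 and 371. Psme2 stood at 149 and 252. The limit cuts a continuous range: 71 high and 56 low cells lay within 0.1 percentage points of it, and the median depths were 1247.5 and 1701.5 UMIs. P50 and P50_Depil5D, the libraries with the lowest T cell share, held 366 of 536 and 431 of 625 T cells above the limit.

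**Figure D5:**
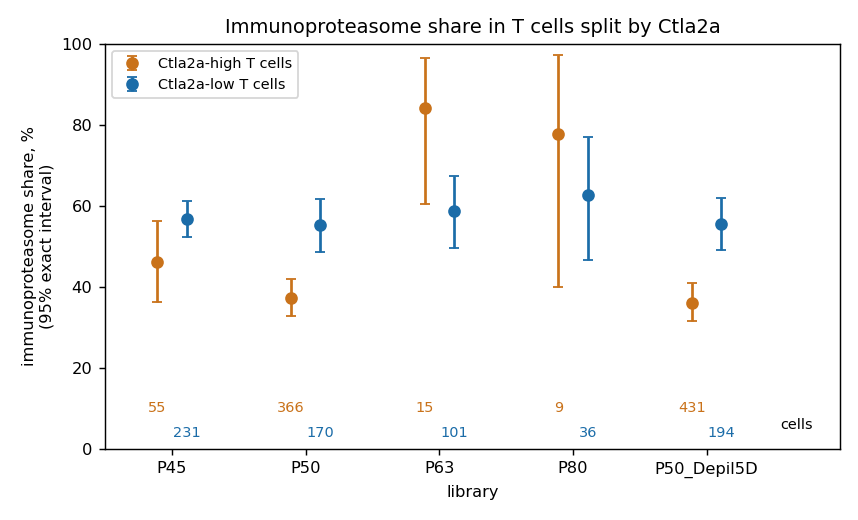
Immunoproteasome share (y axis, %) of T cells above and below 0.5% of UMIs from Ctla2a in each library (x axis), with exact 95% intervals of counting error and the number of cells below each point. In the 3 libraries with at least 55 cells on either side the cells above the limit have the lower share (36.1% to 46.1% against 55.2% to 56.8%).

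After depilation, proteasome transcripts of T cells and dermal dendritic cells were a smaller fraction of UMIs than at P50. Each side is 1 library, so the ratios have no replicate check or test, and the exact 95% intervals cover counting error only. In T cells the 50 genes summed to 5440 CPM at P50 and 4556 in P50_Depil5D, a ratio of 0.838 (0.803 to 0.874). In dermal dendritic cells they summed to 4856 and 4021 (0.828, 0.782 to 0.876), although with TMM factors over the sums that ratio was 0.979. In keratinocytes it was 0.936 (0.891 to 0.984) and in macrophages 0.889 (0.781 to 1.01). The immunoproteasome genes gave 0.788 (0.669 to 0.929) and 0.745 (0.624 to 0.887) in T cells and dermal dendritic cells, and their constitutive partners 0.795 and 0.866. The T cell share was 43.4% at P50 and 43.2% after depilation. Psme1 and Psme2 together gave 0.792 and 0.767.

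Single genes seldom passed a 2-fold difference after depilation. Of genes with at least 50 UMIs over both libraries, 0 of 39 members did so in T cells (all genes 0.683% higher and 0.629% lower) and 0 of 37 in keratinocytes (1.17% and 0.631%). In macrophages, with 9 members, it was 0 as well (1.97% and 6.61%). In dermal dendritic cells 2 of 31 were lower (2.02% of all genes were) and 0 higher (0.616%): Psmd14, the deubiquitinase subunit, with 84.3 and 35.5 CPM (ratio 0.42, 0.235 to 0.727), and the alpha subunit Psma1 with 99.3 and 46.1 (0.464, 0.279 to 0.755). Psmd14 was also the lowest in T cells (0.652, 0.441 to 0.959), where Psmd1 was the highest (1.64, 0.980 to 2.80). In keratinocytes Psmd11 was the highest (78.3 and 121 CPM, 1.54, 1.12 to 2.15).

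From P45 to P80 the sum of the 50 genes had ratios of 1.09 (0.964 to 1.23) in T cells, 0.959 (0.842 to 1.09) in dermal dendritic cells, 1.01 (0.961 to 1.05) in keratinocytes and 0.870 (0.675 to 1.11) in macrophages. With TMM factors they were 0.793, 0.750, 0.926 and 0.486, so that the direction turned in T cells and keratinocytes. The P80 sums rest on 45 T cells, 34 dermal dendritic cells and 18 macrophages. In keratinocytes the immunoproteasome genes went from 197 to 241 CPM (1.23, 1.02 to 1.47), but the ratio turned to 0.687 without shared barcodes, which 170 of the 232 P80 keratinocytes carried. In T cells their ratio was 1.30 (0.888 to 1.86) and in dermal dendritic cells 1.06 (0.724 to 1.51), intervals that include no change. Psme2b had the highest ratio in dermal dendritic cells (4.63, 1.98 to 9.67) and in keratinocytes (2.56, 1.58 to 4.13). In keratinocytes it was the only member past 2-fold of 44 (all genes 4.23% higher and 3.59% lower). In dermal dendritic cells 2 of 31 members were higher, Psme2b and Psmb9 (ratio 1.92, 0.894 to 3.66, which passed 2-fold with 0.5 UMI added to each side, as all genes were counted), and 0 lower (all genes 7.19% and 9.2%). In T cells 1 of 24 was lower, Psma1, and 0 higher (7.96% and 6.67%), and in macrophages 3 of 21 were higher and 3 lower (13.5% and 15.7%).

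Across the 23 class-by-library sums, the genes outside the family whose level ran most like the summed Psmb8, Psmb9 and Psmb10 were Cyba (Spearman's rho 0.78), Ccr2 (0.77), Trappc5 (0.76), Myo1g (0.75) and Ms4a6c (0.74), followed by Dok2 and Scand1 (0.73 each), Furin (0.73), Ndufb7 (0.71) and Ctss (0.71), among 2210 genes with a mean of at least 50 CPM. Of the proteasome genes outside the 3, Psme2 (0.73), Psme1 (0.66) and Psma7 (0.57) were nearest. The sums share libraries, cells of one gate and depth, so these values are a description only.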

How the data were processed

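The authors deposited 5 tables of UMI counts per gene and cell barcode, raw and not normalized; per the submitters' processing notes the build was mm10 and Seurat was used; no label or header names the aligner. The proteasome genes, gene lists and cell markers were chosen with earlier results of these data known. Barcodes under 200 genes or over 10% mitochondrial UMIs were removed (61 of 6223, leaving 6162; median 1236 to 2550 UMIs per library). A cell joined the class, of 16, with the most distinct markers, given at least 3 and at least 2 more than any other class. No doublet caller was run. An alternative left out cells with 2 or more markers of another class.

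Counts were summed per class and library (at least 10 cells and 10000 UMIs, in at least 3 libraries) and tested with edgeR 4.0.16 (quasi-likelihood, TMM scaling, filterByExpr, library as a block, Benjamini-Hochberg over 8069 genes) in R 4.3.3, with a threshold of 0.05. The library blocks pair the classes because sums of 1 library come from the same suspension. Library is the replicate, with no more than 1 per age, and nothing says the libraries came from separate animals of one group. The p-values therefore measure class differences against their variation over these libraries, with the spread shared over all classes. In simulated counts of 7528 genes, 74% of 2-fold rises, 54% of 2-fold falls and 100% of 4-fold changes were recovered, and 2.38% of calls were false. The simulated classes shared 1 mean profile and a fixed spread, and only well-counted genes were changed, in T cells alone. In the real data 48.8% of genes were called between T cells and keratinocytes, so these rates need not hold there. Shares and ratios have exact 95% intervals from scipy 1.17.1. Shares were also computed after random thinning of each cell to 1000 UMIs, leaving out cells with fewer. Alternatives were DESeq2 1.42.0, its size factors, library-size scaling, no low-count filter, other gates, no block, each library left out, and leaving out mixed cells, shared barcodes, cells under 500 genes, and cells whose ribosomal pseudogene share was under 0.5 of their library's median.

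Named by rule were the catalytic, activator, inhibitor and chaperone genes, plus in each contrast the 3 largest rises and falls among called genes. For ratios the rule took the 3 highest and lowest, of which only some are given here. Other called members were named after their values were seen. Coordinates are from GENCODE vM21 (27645 of 27998 identifiers found) and promoters from RefSeq.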

Additional observations from a re-analysis of the deposited data

How the results depend on the processing

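The mean immunoproteasome share stayed above that of keratinocytes in T cells, macrophages and dermal dendritic cells under every alternative run, and the calls of Psmb10 in all 3, of Psme1 in T cells and dermal dendritic cells and of Psmb8 and Psmb9 in dermal dendritic cells were kept, whereas counts of called members moved. T cells against keratinocytes had 8 called members, 16 with library-size scaling (an alternative chosen after seeing the data) and 6 to 9 with a library left out. Dermal dendritic cells against T cells had 8, but 5 with no replicate block (pairing by library dropped), 5 without shared barcodes, 4 without P50_Depil5D, 4 without P63 and 5 without P80 (4 to 10 over libraries left out). Dermal dendritic cells against keratinocytes had 13, 8 without P50 and 8 to 14 over libraries left out. Macrophages against keratinocytes had 5, 8 with a gate of 2 markers, 3 with no replicate block, 3 without P50 and 3 without P50_Depil5D (3 to 6 over libraries). Macrophages against dermal dendritic cells had 6, and 0 with DESeq2, its size factors, library-size scaling or no replicate block, 2 with cells of 500 genes, 3 with no low-count filter, 1 without shared barcodes and 1 to 3 with a library left out (2 without P45, 2 without P50, 3 without P63, 1 without P80, 1 without P50_Depil5D). The cause of these moves was not tested.

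The mean shares with a library left out ranged over 50.9% to 56.5% in T cells, 62.1% to 65.7% in dermal dendritic cells, 37.0% to 41.8% in keratinocytes and 55.8% to 56.7% in macrophages. Without mixed cells the macrophage share was 52.3% over 2 libraries. The difference of T cells from keratinocytes was 18.7, 9.50, 9.05, 23.9 and 6.81 points per library in the main run. It was 14.9, 2.09, 10.4, 32.8 and 1.22 with cells thinned to 1000 UMIs. Without mixed cells it was 14.2, 5.01, 14.6, 25.1 and 2.02. Ratios of the summed 50 genes moved with TMM factors: P80 over P45 became 0.793 in T cells, 0.750 in dermal dendritic cells, 0.926 in keratinocytes and 0.486 in macrophages, and P50_Depil5D over P50 became 0.979 in dermal dendritic cells. Without mixed cells the latter was 0.887 in dermal dendritic cells and 0.990 in keratinocytes. In keratinocytes P80 over P45 was 0.959 without low-share cells and 0.792 without shared barcodes, and that of the immunoproteasome genes 1.01 and 0.687, the last a reversal. Of the comparisons of summary values, 199 stayed within their limits, 11 moved, 1 reversed, 21 weakened and 2 strengthened; of those of single genes 1250 stayed, 153 lost and 29 gained a call. No fit of NK cells or, as planned, of mature dendritic cells was possible with so few cells, and macrophage contrasts had none without mixed cells. Depth limits the P80 sums most.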
